A study of Mus musculus with 4 samples.

Results

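Genes typical of lung endothelium, the cell layer that lines blood and lymph vessels, were followed in RNA-seq libraries of sorted lung group 2 innate lymphoid cells (ILC2s). The 38 genes were fixed as a list of symbols, and each was taken from the row of the count table that carries its symbol. All 38 were found among 22558 genes, and 37 of them passed the filter on low counts. ILC2s were sorted as live CD45+ lineage-negative ST2+ CD127+ cells from collagenase-digested, perfused lungs of mice aged 6 weeks. All mice, WT and ICAM-1 KO alike, had received 3 intranasal challenges of 0.5 µg recombinant mouse IL-33, and lungs were taken on day 4. WT mice were C57BL/6. ICAM-1 KO mice carried the Icam1 tm1Jcgr allele (B6.129S4) in the germline, hence in every cell of the body, the vessel wall included. There were 2 libraries per genotype, each made from the pooled cells of 4 mice and 10 ng of RNA, so n = 2 throughout. Library totals ran from 24796148 to 28782471 estimated counts.

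Endothelial cells hold together through cadherin and claudin junctions, sense VEGF and angiopoietins through receptor tyrosine kinases, and respond to circulating BMP9 and BMP10 through ALK1 and endoglin. In the lung they form the gas-exchange capillaries, whose surface carries angiotensin-converting enzyme and carbonic anhydrase and whose membrane is dense with caveolae. Mature endothelial cells lack CD45, the surface protein on which the ILC2 gate selected. Several of the 38 genes are also known from other cells: Pecam1 from platelets and leukocytes, Lyve1 and Hpgd from some macrophages, Foxf1 and Ednrb from mesenchyme, Cav1 from alveolar type 1 cells and Epas1 from many cell types.

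The targeted gene, Icam1, the ligand of the integrin LFA-1 (chr9:21015985-21028817 in mm10), was not reduced under the ICAM-1 KO label. WT libraries held 85.2 and 83.3 normalized counts and those labelled ICAM-1 KO held 97.6 and 110, and the fitted log2 fold change was 0.33 (SE 0.108, adjusted p = 0.0745, edgeR's quasi-likelihood test). Normalized counts are the authors' upper quartile scaled values, with 1 count added before scaling. RNA totals of the gene cannot check which part of the transcript the allele still makes, so ICAM-1 KO below stands for the libraries with that label.

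RNA of the 38 genes was a small part of every library and made up more of those labelled ICAM-1 KO. A sum over 38 genes is not the whole endothelial RNA of a library. The summed counts of the 38 genes made up 592 and 644 CPM (counts scaled to a common library total) in WT and 1626 and 1699 CPM in ICAM-1 KO. As shares of all counts these were 0.0592% and 0.0644% against 0.163% and 0.17%. The ICAM-1 KO mean of 1663 ± 51.5 CPM (SD, n = 2) was 2.69-fold the WT mean of 618 ± 36.3 CPM (SD, n = 2), and the difference was far larger than the spread within either group. An exact two-sided permutation test of the summed value gave p = 0.333, the smallest that its 6 regroupings of 4 libraries allow. In bulk RNA, more endothelial cells or fragments and more of these transcripts per cell cannot be told apart.

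Gene by gene, 33 of the 37 genes tested were higher in ICAM-1 KO at an adjusted p under 0.05 (edgeR's quasi-likelihood test, Benjamini-Hochberg over all 11711 genes tested), 0 were lower and 4 did not pass. Over all genes tested, 8.8% were called higher and 4.97% lower. At a change of at least 2-fold besides, 32 were called higher, against 4.94% of all genes, and 0 lower, against 0.538%. Both ICAM-1 KO libraries lay above both WT libraries for 35 of the 37, against 28.3% of all genes. The median log2 fold change was 1.65 (range -0.17 to 2.51), and that of all genes tested was 0.01. These are descriptions of a list chosen with earlier results of the same libraries known. Of the 37, 5 (Emcn, Robo4, Flt4, Sox17 and Mmrn2) passed the filter on low counts only through their level in ICAM-1 KO. Among the 32 whose WT level alone would have passed, 29 were higher and the median was 1.63. Without WT replicate 1 the number of genes higher at 2-fold or more fell from 32 to 21, and with no filter on low counts it was also 21. Calls of 19 genes held under every alternative. The 14 that were lost under 1 or more were those of Cdh5, Sox7, Clec14a, Lyve1, Sox18, Bmpr2, Car4, Foxf1, Ecscr, Emcn, Robo4, Flt1, Sox17 and Cyyr1. By ratio of group means, 20 genes were at least 3-fold higher.

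**Figure D1:**
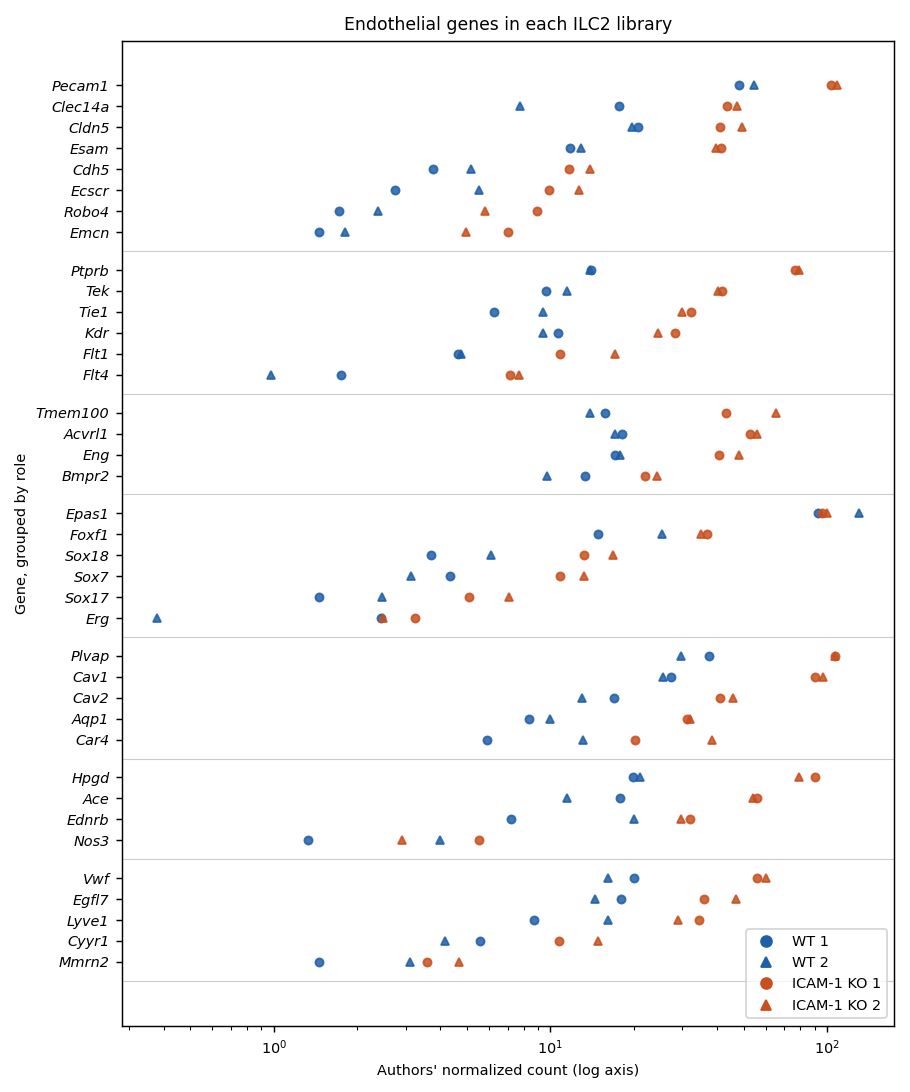
Normalized count of each of the 38 endothelial genes in the 4 libraries (x axis, log scale), with genes on the y axis grouped by role; circles and triangles are replicates 1 and 2, blue is WT and orange is ICAM-1 KO, with no error bars since every library is shown. The orange points lie to the right of the blue points for most genes, and they overlap for Epas1 and Nos3.

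Since these genes moved together, the 250 bases before their RefSeq transcription starts (GRCm38.p6) were searched on both strands for letters of factors known from endothelium. Of the 38 genes, 21 had a window. The letters AGGAAG, a core bound by ETS factors such as ERG, FLI1 and ETV2, were in the windows of 12 of the 21 (57.1%), against 32.3% of all 27025 genes with a window. ACAATG (SOX) was in 2 of 21, against 12.2% of all genes. For GATA factors, the letters searched were AGATAA, found in 1 of 21 against 11.4% of all genes. For KLF factors they were GGGTGTG, found in 3 of 21 against 7.9%. GTAAACA (FOX) and GTCTAGAC (SMAD) were in 0 of 21, against 3.54% and 0.2%. No test was made of these shares, and a match of letters is not a binding site. The windows of 4 genes are printed so that the letters can be seen in place: those of Hpgd, Aqp1 and Flt1, the genes of largest change with the ETS letters among those with a single window clear of their annotated gene, and that of Tek, which had none. Each is given 5′ to 3′ on the strand of its gene, with AGGAAG or its reverse complement CTTCCT in capitals. They lie at chr8:56294302-56294551 (plus strand, Hpgd), chr6:55336049-55336298 (plus strand, Aqp1), chr5:147726012-147726261 (minus strand, Flt1) and chr4:94739039-94739288 (plus strand, Tek).
Hpgd: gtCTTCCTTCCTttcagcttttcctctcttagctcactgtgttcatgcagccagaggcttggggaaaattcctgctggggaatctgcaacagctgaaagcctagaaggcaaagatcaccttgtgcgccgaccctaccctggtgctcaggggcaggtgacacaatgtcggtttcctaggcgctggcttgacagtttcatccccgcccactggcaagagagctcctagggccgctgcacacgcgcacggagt
Aqp1: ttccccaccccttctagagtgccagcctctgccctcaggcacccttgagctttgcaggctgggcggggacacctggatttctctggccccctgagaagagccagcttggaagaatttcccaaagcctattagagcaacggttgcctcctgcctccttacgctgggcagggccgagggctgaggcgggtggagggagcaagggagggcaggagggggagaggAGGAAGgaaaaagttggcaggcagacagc
Flt1: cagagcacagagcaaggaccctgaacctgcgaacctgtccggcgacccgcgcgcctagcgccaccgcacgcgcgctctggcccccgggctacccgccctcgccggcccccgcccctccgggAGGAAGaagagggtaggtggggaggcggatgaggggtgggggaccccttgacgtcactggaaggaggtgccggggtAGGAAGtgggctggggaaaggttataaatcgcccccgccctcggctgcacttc
Tek: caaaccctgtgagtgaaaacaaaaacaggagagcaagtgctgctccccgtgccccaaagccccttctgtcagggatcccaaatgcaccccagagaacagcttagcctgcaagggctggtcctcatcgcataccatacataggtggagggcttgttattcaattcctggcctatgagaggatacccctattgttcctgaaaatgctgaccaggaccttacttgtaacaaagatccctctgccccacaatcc
The Hpgd window holds 2 overlapping matches at its far end, the Flt1 window holds 2 separate matches, and the Aqp1 window holds 1. The fitted log2 fold changes were 2.08 for Hpgd and 1.99 for Tek. Whether the letters go with the size of the change was not tested.

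The receptors for VEGF and angiopoietins govern vessel growth and quiescence, and Ptprb, a phosphatase acting on them, was listed with them. All 6 genes were higher, with a median log2 fold change of 2.00, the highest of the 7 role groups. Of these, Flt4 passed the filter on low counts only through ICAM-1 KO, and the other 5 had a median of 1.99. Their summed level went from 52 and 54.5 CPM in WT to 228 and 227 CPM in ICAM-1 KO, 4.27-fold, or 3.64-fold for the 5 receptors without Ptprb. Kdr and Flt1 lay below the median of all 37 genes. Ptprb, the phosphatase VE-PTP that restrains TIE2 and VE-cadherin signalling (chr10:116275523-116389535), had normalized counts of 14.1 and 13.9 in WT and 76.5 and 78.9 in ICAM-1 KO. It had the largest fitted change of the 37 genes, 2.51 on the log2 scale (SE 0.136, adjusted p = 7.8e-05), and replicates within each group differed by at most 1.03-fold. Flt4, the VEGF-C receptor VEGFR3 (chr11:49609263-49652739), went from 1.75 and 0.982 to 7.12 and 7.71. Its log2 fold change of 2.50 had an SE of 0.416, since it rested on 52 and 30 counts in WT against 204 and 241.

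Both angiopoietin receptors moved by a like amount. Tek, which encodes TIE2, had 9.64 and 11.5 in WT and 41.8 and 40.2 in ICAM-1 KO, with a fitted log2 change of 1.99 (SE 0.177, adjusted p = 0.000496). Tie1, its partner receptor, had 6.27 and 9.4 against 32.1 and 30, a log2 fold change of 2.01 (SE 0.227). The other two VEGF receptors had smaller fitted changes than Flt4, and the differences between receptors were not tested. Kdr, the main signalling receptor VEGFR2, had 10.7 and 9.37 against 28.1 and 24.5 (log2 fold change 1.42, SE 0.204, adjusted p = 0.00367). Flt1, the high-affinity receptor VEGFR1, had 4.62 and 4.75 against 10.8 and 17.1. The ICAM-1 KO libraries lay 1.58-fold apart for Flt1, and its log2 fold change of 1.62 (SE 0.325) lost its call without either WT library, without ICAM-1 KO replicate 2 and with no filter.

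All 8 junction and surface genes were higher, with a median log2 fold change of 1.65. Of these, Emcn and Robo4 passed the filter on low counts only through ICAM-1 KO, and the other 6 had a median of 1.51. Pecam1, the adhesion molecule CD31, had 48.1 and 54.5 in WT and 103 and 108 in ICAM-1 KO. Its log2 fold change of 1.07 (SE 0.113, adjusted p = 0.00112) was the smallest of the 8. Cdh5, VE-cadherin, the adherens junction protein that defines endothelium, went from 3.76 and 5.16 to 11.7 and 13.9, a log2 fold change of 1.55 (SE 0.296, adjusted p = 0.012). Groups did not overlap for either gene.

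Cldn5, the tight junction claudin of endothelium, had 20.7 and 19.6 in WT and 41.1 and 49.3 in ICAM-1 KO, with a fitted log2 change of 1.19. Esam, an immunoglobulin-family junction protein, had 11.8 and 12.9 against 41.3 and 39.7, and its log2 fold change of 1.75 (SE 0.167, adjusted p = 0.000674) was the most precise of the group after Cldn5 and Pecam1. Clec14a, a C-type lectin of endothelium, had 17.7 and 7.79 against 43.6 and 47.2. For Clec14a the WT libraries lay 2.27-fold apart and the ICAM-1 KO libraries 1.08-fold apart. The other 3 had few counts in WT: Emcn (endomucin, a sialomucin of veins and capillaries) had 43 and 56, Robo4 (a guidance receptor that stabilizes vessels) 51 and 74, and Ecscr (an endothelial surface regulator) 82 and 174. Their counts in ICAM-1 KO were 202 and 154, 257 and 181, and 284 and 396, giving log2 fold changes of 1.91, 1.88 and 1.47 with SEs between 0.359 and 0.423. Each of the 3 lost its call in 2 or 3 of the 4 fits that left out 1 library.

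**Figure D2:**
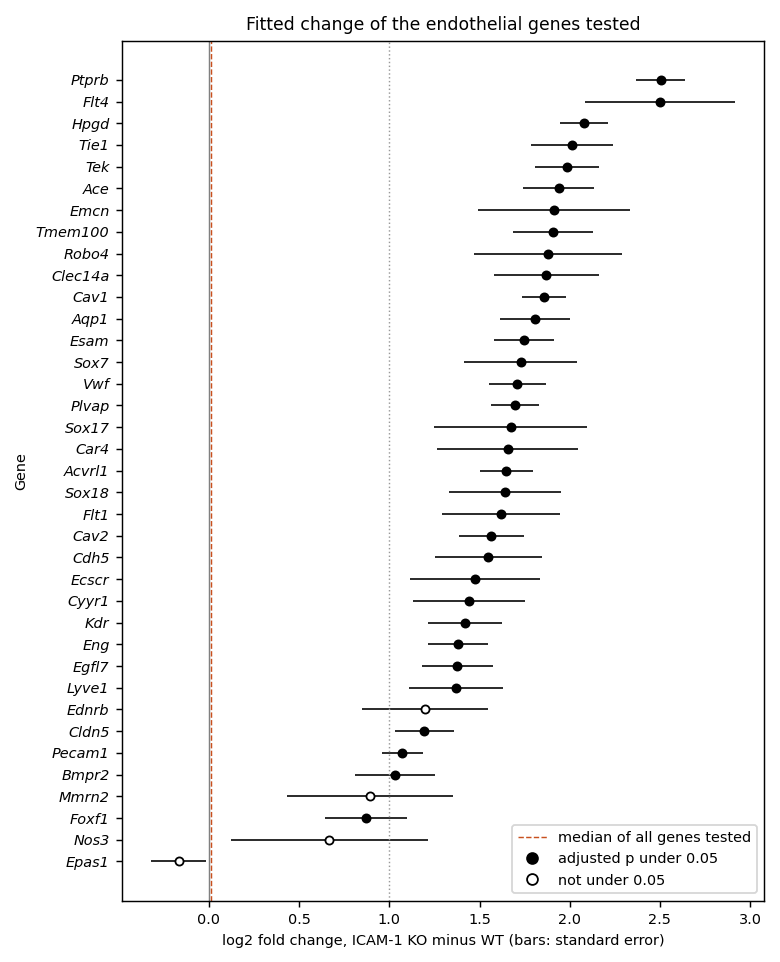
Fitted log2 fold change of the 37 genes tested, ICAM-1 KO minus WT (x axis), one gene per line on the y axis, with bars for the standard error; filled points passed an adjusted p of 0.05, the dotted line marks 2-fold and the dashed line the median of all genes tested. The 33 filled points lie between 0.87 (Foxf1) and 2.51 (Ptprb), and the 4 open points are Ednrb, Mmrn2, Nos3 and Epas1.

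The 4 genes of BMP and TGF-beta signalling were all higher, with a median of 1.52. Acvrl1, which encodes the BMP9 receptor ALK1, had 18.1 and 17.2 in WT and 52.7 and 55.7 in ICAM-1 KO, with a fitted log2 change of 1.65 (SE 0.145, adjusted p = 0.000496). Eng, its co-receptor endoglin, had 17.1 and 17.8 against 40.7 and 48.1, a log2 fold change of 1.38 (SE 0.165, adjusted p = 0.00159). Tmem100, a membrane protein made downstream of ALK1, had 15.7 and 13.9 against 43.2 and 65.2. Its ICAM-1 KO libraries lay 1.51-fold apart, and both were more than 2-fold above the higher WT library. Bmpr2, the type II receptor that is mutated in heritable pulmonary hypertension and is made in many cell types, had 13.4 and 9.75 against 21.9 and 24.2. Its log2 fold change of 1.03 (SE 0.222, adjusted p = 0.0185) was, after that of Foxf1, the smallest among the genes called.

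Transcription factors were mixed. The 3 SOXF factors, which specify arterial and lymphatic endothelium, were all higher, though Sox17 passed the filter on low counts only through ICAM-1 KO. Sox18 had 3.7 and 6.11 in WT and 13.2 and 16.8 in ICAM-1 KO, with a fitted log2 change of 1.64 (SE 0.311, adjusted p = 0.0116). Sox7 (130 and 98 counts against 310 and 414) and Sox17 (43 and 77 counts against 145 and 221) had log2 fold changes of 1.73 and 1.67, and Sox17 lost its call in 3 of 4 fits that left out 1 library. Foxf1, a factor of lung capillaries and mesenchyme, had 14.8 and 25.2 against 36.9 and 35.1. It was called higher at under 2-fold, with a log2 fold change of 0.87 (SE 0.229, adjusted p = 0.0376), and its WT libraries lay 1.7-fold apart.

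Epas1 was not called, and Erg was not tested. Epas1, the hypoxia-inducible factor HIF-2α, had the highest counts of the 38 genes, with 2800 and 4123 in WT and 2756 and 3120 in ICAM-1 KO. Its normalized counts of 92.5 and 131 in WT and 95.7 and 99.4 in ICAM-1 KO overlapped, and the log2 fold change was -0.17 (SE 0.152, adjusted p = 0.504). This gene alone gave 17.3% and 22.3% of the summed counts of the 38 genes in WT and 6.84% and 6.69% in ICAM-1 KO. Leaving it out raised the ratio of the summed CPM from 2.69-fold to 3.13-fold. Erg, the ETS factor that maintains endothelial identity, fell below the filter on summed normalized counts, with 73 and 11 counts in WT and 92 and 77 in ICAM-1 KO. Both ICAM-1 KO values of Erg, 3.23 and 2.48 normalized counts, lay above those of WT, 2.44 and 0.38. Its WT libraries lay 6.43-fold apart, the widest gap of the 38 genes, and with no filter its log2 fold change was 1.03 (adjusted p = 0.458).

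The 5 genes of caveolae, fenestrae, water and bicarbonate handling were all higher, with the narrowest range of the role groups, 1.57 to 1.86 on the log2 scale. Cav1, the caveolin that shapes caveolae, had 27.2 and 25.6 in WT and 90.7 and 96.7 in ICAM-1 KO, with a fitted log2 change of 1.86 (SE 0.122, adjusted p = 0.000131). Cav2, its partner from the neighbouring gene on chromosome 6, had 16.9 and 13 against 41 and 45.7, a log2 fold change of 1.57 (SE 0.181). Plvap, which forms the diaphragms of fenestrae and caveolae, had 37.4 and 29.6 against 107 and 106, a log2 fold change of 1.70 (SE 0.133, adjusted p = 0.000282). Per kilobase of exon, Plvap stood at 20.9 and 16.3 CPM per kb in WT and 62.5 and 61.1 in ICAM-1 KO. Aqp1, the water channel of capillaries and red cells, had 8.39 and 9.94 against 31.1 and 31.8, a log2 fold change of 1.81 (SE 0.195). Car4, the carbonic anhydrase of the capillary surface, had 5.88 and 13.1 against 20.1 and 38.5. Both pairs of Car4 replicates lay far apart, 2.24-fold in WT and 1.91-fold in ICAM-1 KO, and its call was lost without WT replicate 1.

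Among vasoactive and metabolic genes, 2 of 4 passed. Hpgd, which inactivates prostaglandins by oxidation in the lung (chr8:56294585-56321043), had 19.8 and 21.1 in WT and 90.4 and 79.2 in ICAM-1 KO, and came after Ptprb and Flt4 with a log2 fold change of 2.08 (SE 0.133, adjusted p = 0.000131). Ace, angiotensin-converting enzyme, had 17.8 and 11.5 against 55.9 and 53.9, a log2 fold change of 1.94 (SE 0.197, adjusted p = 0.000877). Ednrb, the endothelin B receptor, had 7.2 and 20.1 against 32 and 29.7, so that its ICAM-1 KO libraries lay above both WT libraries while the WT libraries were 2.79-fold apart. Its log2 fold change of 1.20 (SE 0.35) missed the threshold at an adjusted p of 0.0527, and it passed under 6 alternatives, among them the fit to library totals alone. Nos3, the endothelial nitric oxide synthase, had 39 and 125 counts in WT and 158 and 90 in ICAM-1 KO, which overlapped. The log2 fold change of Nos3 was 0.67 (SE 0.546, adjusted p = 0.45), less than the spread between its replicates, which lay 2.99-fold apart in WT and 1.91-fold in ICAM-1 KO.

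Of 5 secreted, matrix and other surface genes, 4 were higher. Vwf, the clotting factor stored by endothelium and platelets, had 20 and 16.1 in WT and 55.7 and 59.9 in ICAM-1 KO, with a fitted log2 change of 1.71 (SE 0.158, adjusted p = 0.00063). Egfl7, a secreted guide of vessel tubes, had 18 and 14.5 against 35.8 and 46.9, a log2 fold change of 1.38 (SE 0.199). Lyve1, the hyaluronan receptor of lymphatic vessels and some macrophages, had 8.72 and 16.1 against 34.3 and 28.8, a log2 fold change of 1.37 (SE 0.262). Vwf replicates lay close together in both groups, whereas the WT libraries differed by 1.85-fold for Lyve1. Cyyr1, a small membrane protein, had 5.55 and 4.17 against 10.8 and 14.9, a log2 fold change of 1.44 (SE 0.31). Mmrn2, the matrix ligand of CLEC14A, had 43 and 97 counts against 102 and 146. Both ICAM-1 KO values of Mmrn2 lay above WT, but its log2 fold change of 0.89 (SE 0.46) did not pass (adjusted p = 0.231).

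Per kilobase of exon, levels of the 38 genes spanned a wide range. By mean CPM per kb, the order in WT opened with Epas1 (18.4 and 25.6), Plvap, Cldn5, Hpgd and Tmem100, and that in ICAM-1 KO with Plvap, Hpgd, Cldn5, Tmem100 and Cav1. The WT libraries of Epas1 and Plvap overlapped, so the lead of Epas1 in WT is within their spread. Hpgd had 13.1 and 13.7 CPM per kb in WT and 62.4 and 53.8 in ICAM-1 KO, and Cldn5 had 16.3 and 15.2 against 33.7 and 39.8. At the low end, Flt4 had 0.232 and 0.127 CPM per kb in WT and 0.999 and 1.07 in ICAM-1 KO, and Erg had 0.773 and 0.11 against 1.07 and 0.809. Ptprb, with the largest change, stood at 1.17 and 1.14 CPM per kb in WT and 6.66 and 6.76 in ICAM-1 KO. Raw counts ran from 11 for Erg in WT replicate 2 to 4123 for Epas1 in the same library, and 29 genes had at least 100 counts in every library.

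The WT libraries differed from each other more than the ICAM-1 KO libraries did. Over the 37 genes other than Epas1, the SD of the log2 ratio between replicates was 0.786 in WT and 0.359 in ICAM-1 KO, and without Erg as well it was 0.633 and 0.35. WT replicates lay more than 2-fold apart for 7 genes (Erg, Nos3, Ednrb, Clec14a, Car4, Mmrn2 and Ecscr), and ICAM-1 KO replicates for 0. The direction was not shared, since Clec14a and Erg were higher in WT replicate 1 and the other 5 in WT replicate 2. For 24 of the 37 genes tested (64.9%) the lower ICAM-1 KO library was still at least 2-fold above the higher WT library, against 3.57% of all genes tested. Lower counts in WT go with a larger counting error, and how much of the difference in spread this gives was not tested.

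The makeup of the endothelial counts, apart from their total, overlapped between genotypes for most genes. Each gene was expressed as a percent of the summed counts of the 37 genes other than Epas1. Ptprb took 3.18% and 3.03% in WT and 5.86% and 5.68% in ICAM-1 KO, 1.86 times the WT mean. Hpgd went from 4.5% and 4.61% to 6.93% and 5.71%. Pecam1 went the other way, from 10.9% and 11.9% to 7.93% and 7.81%, and Foxf1 from 3.36% and 5.52% to 2.83% and 2.53%. In all, 8 shares were higher in both ICAM-1 KO libraries (Ptprb, Flt4, Hpgd, Tie1, Tek, Cav1, Aqp1 and Esam), 5 were lower in both (Pecam1, Cldn5, Eng, Bmpr2 and Foxf1), and 24 overlapped. These were 21.6% and 13.5% of the 37 shares. Of all genes tested, 28.3% and 31.3% did not overlap in each direction in normalized counts, a different measure from a share of a total. With 2 libraries against 2, a share can separate in this way without any difference between the genotypes. Shares of 1 total are not independent of each other, and no test was made of them.

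**Figure D3:**
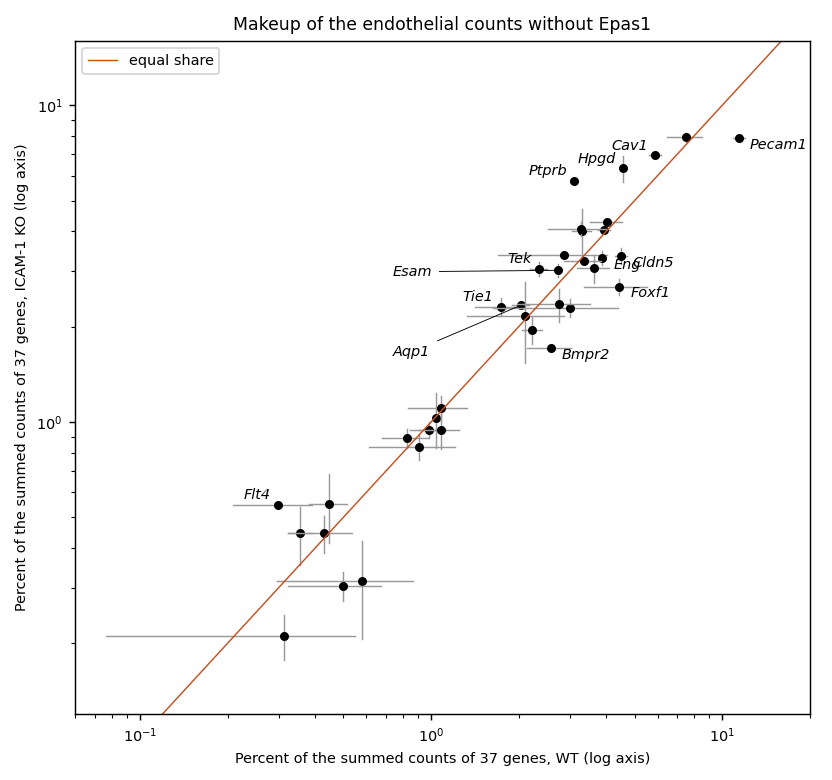
Percent of the summed counts of 37 endothelial genes (Epas1 left out) taken by each gene, WT mean on the x axis and ICAM-1 KO mean on the y axis (both log scales); grey lines join the 2 libraries of each group, the orange line marks equal shares, and names are given where the groups do not overlap. Of the named genes, Ptprb and Flt4 stand farthest above the line, and Foxf1, Bmpr2 and Pecam1 farthest below it.

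Many other genes of the endothelium were higher as well, but not all. Of 67 companion genes (30 further pan-endothelial genes, genes of vessel types and vascular ligands), 46 were tested. Of these, 32 were higher and 0 lower, against 8.8% and 4.97% of all genes tested, and the median log2 fold change was 1.32. The 14 not called included Stab1, Icam2 and Cd34 (log2 fold changes 0.05, 0.27 and 0.45). Vegfb, also not called, lay lower in both ICAM-1 KO libraries than in WT (-0.40). Of the 46, 11 passed the filter on low counts only through their level in ICAM-1 KO, and 8 of those were called (Jam2, Fgd5, Hspa12b, Aplnr, Dll4, Ephb4, Nrp2 and Edn1). Among the 35 whose WT level alone would have passed, 24 were higher and the median was 0.98. Without WT replicate 1 the number higher was 18, and with no filter 16. This list too was written with earlier results known. The 6 with the smallest adjusted p were Thbd, Tspan7, Ramp2, Adgrl4, Ephb4 and Bmp6. Thbd, thrombomodulin, the endothelial anticoagulant receptor, had 15.5 and 16.7 in WT and 74.2 and 77.2 in ICAM-1 KO, and its fitted log2 change was 2.27 (adjusted p = 0.000131). Adgrl4, the adhesion receptor ELTD1, had 6.17 and 5.22 against 27.9 and 34.5, a log2 fold change of 2.49. Tspan7, a tetraspanin, had a log2 fold change of 1.85, and Ramp2, the partner of the adrenomedullin receptor, one of 1.41.

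The most abundant companions by normalized count changed less. Nrp1, a VEGF co-receptor also made by ILC2s and T cells, had 151 and 132 in WT and 175 and 178 in ICAM-1 KO, with a fitted log2 change of 0.35 (adjusted p = 0.0471). Calcrl, the adrenomedullin and CGRP receptor, had 99.3 and 82 against 189 and 167, a log2 fold change of 1.00. S1pr1, the sphingosine 1-phosphate receptor of endothelium and lymphocytes, had 66 and 94.2 against 151 and 145, a log2 fold change of 0.91. Fli1, an ETS factor of blood and endothelium, had 72.1 and 80.6 against 93.9 and 82.7, and its log2 fold change of 0.24 did not pass (adjusted p = 0.202).

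Lists for vessel types rested on few genes each. Of those tested, Aplnr, Fibin, Chst1, Dll4 and Ephb4 passed the filter on low counts only through their level in ICAM-1 KO. Of the general capillary genes, both tested were higher: Gpihbp1, the anchor of lipoprotein lipase, had 5.84 and 7.57 in WT and 23.5 and 32.4 in ICAM-1 KO, and Aplnr, the apelin receptor, 25 and 51 counts against 205 and 118. Of 3 aerocyte genes tested 1 passed, Prx, with 8.68 and 7.79 against 18.5 and 18.5, while Fibin had 58 and 39 counts against 93 and 248 (adjusted p = 0.0568). All 4 artery genes tested were higher. Among them Hey1, a Notch target, had 15 and 16 against 24.6 and 24.3, and Efnb2, the arterial ephrin, 2.67 and 4.05 against 17.8 and 18.7. Both vein genes tested were higher, and Ephb4, the ephrin receptor of veins, had the largest log2 fold change of all companions at 2.80, with 62 and 80 counts against 441 and 506. Selp, P-selectin, had 60 and 124 counts against 262 and 381.

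Lymphatic genes were set apart by WT replicate 1, in which 3 of 6 were at 0. Ccl21a, the lymphatic chemokine, had 0 and 295 counts in WT and 113 and 238 in ICAM-1 KO. Nrp2, the VEGF-C co-receptor, had 9 and 94 counts against 213 and 316, and was the only one of 2 tested that was called (log2 fold change 2.42, adjusted p = 0.0266). Nrp2 passed the filter on low counts only through its level in ICAM-1 KO. Summed over the 6 genes the levels were 1.54 and 20 CPM in WT and 21.1 and 31 CPM in ICAM-1 KO, so that WT replicate 2 was close to the lower ICAM-1 KO library. Among vascular ligands, 3 of 7 tested were higher: Vegfa (22.9 and 18.8 against 45.1 and 50.4), Bmp6 and Edn1 (40 and 65 counts against 185 and 217). Of these, Edn1 passed the filter on low counts only through its level in ICAM-1 KO. Vegfc, the ligand of Flt4, had 14.8 and 19.6 against 15.6 and 12 and did not pass.

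Markers of other lung and blood cells were measured in the same libraries, and many rose under the ICAM-1 KO label. A marker that passed the filter on low counts only through ICAM-1 KO could hardly be found other than higher, so these are named. Of 16 epithelial markers 12 were tested and 7 were higher, 3 of them (Sftpb, Lamp3 and Slc34a2) admitted in that way, with summed levels of 256 to 530 CPM in WT and 755 to 1705 CPM in ICAM-1 KO. Sftpc, the surfactant protein of alveolar type 2 cells, had 731 and 17 counts against 7290 and 16847, while Scgb1a1, of airway club cells, had 10248 and 4495 against 3537 and 16018. Slc34a2 and Sftpb were at 0 in WT replicate 2, and Foxj1 was at 0 in both WT libraries. Of 11 macrophage and monocyte markers tested 9 were higher, Marco and Mertk among those so admitted (277 to 284 CPM against 598 to 885), with Lyz2 at 5130 and 5423 counts against 9897 and 18105 and Csf1r at 818 and 694 against 1369 and 1825.

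Lymphocyte markers moved as well. Of 7 T cell markers 4 were higher (323 to 417 CPM against 693 to 839), among them Trac and Foxp3. The other 3 were not called: Cd3g had 114 and 127 normalized counts against 81.1 and 107, Cd3e had 30.8 and 50.7 against 37.5 and 52.2, and Cd8a had 3.86 and 4.4 against 4.96 and 3.03. Of 5 B cell markers 4 were higher (253 to 412 CPM against 652 to 777). Jchain had 2245 and 7377 counts against 7668 and 13875 and did not pass, and Cd79a had 44.8 and 39.7 normalized counts against 69.8 and 59.1. Of 3 platelet markers tested Pf4 and Ppbp were higher, both admitted only through ICAM-1 KO (37 and 49 counts against 99 and 202 for Pf4), and Itga2b, which passed at its WT level, with 281 and 242 against 290 and 217, was not called. None of 5 mesenchymal markers tested was called (20.4 to 54.2 CPM against 45.5 to 95.1). Col3a1 had 154 and 642 counts against 514 and 1363, and Col1a2 had 99 and 410 against 176 and 449. Neither of 2 haemoglobin genes tested was called (Hba-a2, 23.1 and 16.5 against 20.5 and 23.9; Hba-a1, 16.7 and 14.9 against 20.8 and 16.5). Hbb-bs had 0 and 4 counts against 47 and 122 and Hbb-bt 3 and 12 against 36 and 26, both under the filter. Of the mesothelial markers Msln was at 0 in all 4 libraries, and Lrrn4 had 63 and 26 counts against 105 and 69.

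ILC2 markers had the highest sum of the marker lists in every library, with 12 genes at 7780 and 8287 CPM in WT and 7213 and 7446 CPM in ICAM-1 KO. Their median log2 fold change was -0.10, with 2 of 12 higher and 4 lower, against 8.8% and 4.97% of all genes tested. Klrg1 and Ptprc were higher (log2 fold changes 0.41 and 0.39). Il2ra, Il13, Id2 and Il5 were lower, Id2 and Il5 being the most abundant of these. Both ICAM-1 KO libraries lay above both WT libraries for 4 of the 12 and below for 7, against 28.3% and 31.3% of all genes tested. The endothelial total was thus 2.69-fold higher beside an ILC2 total of 0.912 times the WT mean. The part of other cells in the endothelial change was not tested.

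**Figure D4:**
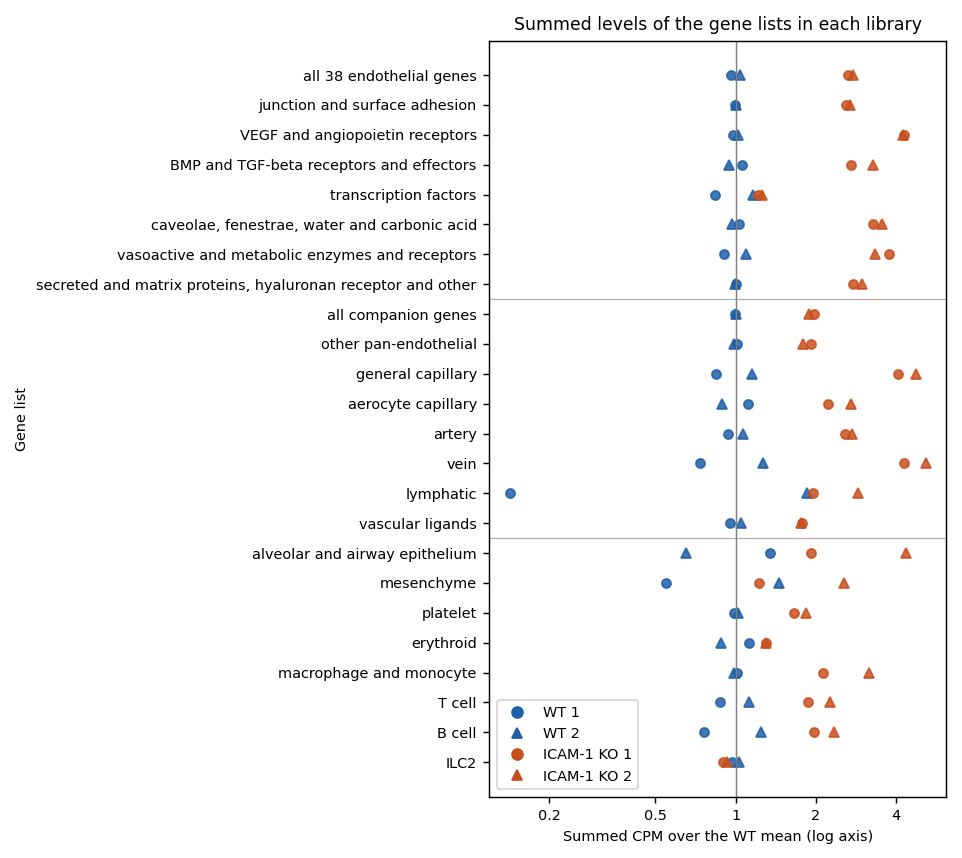
Summed CPM of each gene list in each library, divided by the mean of the 2 WT libraries (x axis, log scale), with lists on the y axis: the endothelial genes and their role groups on top, companion lists in the middle and markers of other cells, mesothelium left out, at the bottom; circles and triangles are replicates 1 and 2. The VEGF and angiopoietin receptors lie at 4.27 times WT and the ILC2 markers at 0.912 times, and the transcription factors, which include Epas1, at 1.23 times. All 38 endothelial genes lie at 2.69 times. Among other cells, epithelium lies at 3.13, macrophages and monocytes at 2.64, B cells at 2.15 and T cells at 2.07 times. Mesenchyme lies at 1.89, platelets at 1.75 and erythroid genes at 1.30 times.

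Some reads may not belong to the gene they were counted for. Of the 38 genes, 10 overlap another gene of the count table. Ecscr, Eng, Plvap and Egfl7 overlap a gene on the other strand, and Nos3 overlaps Atg9b and Gm15587 there. Bmpr2, Foxf1, Epas1, Hpgd and Cyyr1 overlap a gene on the same strand. Annotated genes absent from the count table were not searched. The median log2 fold change of the tested genes without an overlap was 1.71. Robo4 and Esam lie on chromosome 9, 16.4 and 16.5 Mb from Icam1, where sequence of the donor strain can remain around a targeted allele. Robo4 and Esam had log2 fold changes of 1.88 and 1.75, and an effect of such sequence on them was not tested.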

How the data were processed

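RNA was measured in 4 libraries of sorted activated lung ILC2s. Per the labels, reads were handled with CASAVA 1.8.2, STAR (3.5.3 in the submitters' processing notes, 2.6.1d in the study's methods) and Partek on mm10. The authors deposited estimated counts per gene (Partek's expectation maximization over GENCODE M20), of which 56.7% are whole within 0.001. They also deposited an upper quartile normalized signal per gene, equal to the count plus 1 times 1 factor per library. No column holds a fold change or p-value.

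Estimated counts were rounded and fitted with edgeR 4.0.16 (R 4.3.3; glmQLFit and glmQLFTest, upper quartile factors, no covariate) in place of the study's Partek GSA. Genes whose normalized counts averaged under 1 or summed to under 10 were left out, which kept 11711, and p-values were adjusted after Benjamini and Hochberg over these. Fold changes without a log are ratios of mean normalized counts, and levels per kb are CPM divided by the union of GENCODE M21 exons, matched for 21881 genes. Alternatives were TMM factors, library totals, DESeq2 1.42.0, limma 3.58.1 (on log2 normalized counts and log2(CPM + 0.5)), edgeR's older test, 2 other filters, a replicate block and leaving out each library. The fits were tested on simulated data with 200 changed genes, drawn in either direction, and the same dispersion for all genes of a like abundance. The real calls at 2-fold or more were 578 higher and 63 lower, and real genes of like abundance differ in spread. The rates below therefore hold for the simulated data and are not error rates of the real calls. The main fit recovered 66.8% of log2 changes of 1, and 4.32% of its calls were false. False calls made up 9.4% with DESeq2 and 5.96% with the replicate block.

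The members and gene lists were chosen with earlier results of these data known. Named genes are all 38 members, Icam1, the 6 companions of smallest adjusted p and the 4 of highest mean, and up to 2 abundant genes of each vessel and marker list; further genes were chosen after their values were seen. Nothing states that replicates came from separate experiments beyond the pooling of different mice, so p-values measure the spread between these libraries. Strand use in counting is not given in the sources used here.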

Additional observations from a re-analysis of the deposited data

How the results depend on the processing

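No member or companion was called lower under any alternative, and 36 of the 37 tested members kept a positive log2 fold change throughout; Epas1 ran from -0.39 to 0.10 when 1 library was left out, changing sign without WT replicate 2. In all, 19 members were called higher under every alternative and 21 under every one that kept all libraries. With no filter on low counts, which tests more genes, 21 members were called higher (21 at 2-fold or more) and 16 companions (14). Leaving out 1 library gave 23 to 32 members higher (21 to 31 at 2-fold or more) and 18 to 29 companions (16 to 25), with the lowest counts without WT replicate 1, and a median member log2 fold change of 1.48 to 1.71. A single library left in a group is assumed to vary like the others. The median without members that overlap another gene, chosen after seeing the data, was 1.71. The log2 ratio of the summed CPM was 1.43, and it was 1.70 without Epas1 and Pecam1 and 1.65 without Epas1 alone, the latter chosen after seeing the data. Leaving out 1 library gave 1.37 to 1.49. Icam1 passed the threshold as higher with library totals alone (log2 fold change 0.37), and its adjusted p ran from 0.0479 to 0.373 over all alternatives. Ednrb passed under 6 alternatives.

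With the replicate number as a block, 34 members were higher (33 at 2-fold or more) and 33 companions (26). Same-numbered libraries did not deviate together (r = -0.066 over 11711 genes). With 2 libraries per group, this correlation cannot show whether same-numbered libraries shared a preparation. Erg, Nos3 and Mmrn2 had 158 counts or fewer in every library, with WT replicates over 2-fold apart; the cause was not tested.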
